A study of Mus musculus with 33 samples.

Results

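Nodal is a secreted signal of the TGF-beta family that acts through activin receptors and SMAD proteins, and in the mouse embryo it is known for patterning the epiblast, inducing mesoderm and endoderm and setting left-right asymmetry. It needs an EGF-CFC co-receptor to bind its receptors. It is held in check by secreted antagonists of the Lefty and Cerberus types, which are themselves targets of the pathway. Nodal pathway genes were followed here as 9 of the 16336 genes with measured transcript levels, picked by symbol, with earlier results of these data known. They are the ligand *Nodal*, the antagonists *Lefty1*, *Lefty2* and *Cer1*, the co-receptors *Tdgf1* (Cripto) and *Cfc1* (Cryptic), the type II receptor *Acvr2b*, and the signal transducers *Smad2*, which receptors phosphorylate, and *Foxh1*, the forkhead factor that brings SMAD complexes to DNA.

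RNA was sequenced from E14Tg2a mouse embryonic stem (ES) cells of strain 129/Ola, the wild type, and from dK9.1 and dK9.2, a pair of homozygous clones of E14Tg2a that lack the H3K9me3-marked stretch between the *Nanog* enhancer and promoter. All lines were grown in serum with LIF on gelatine (day 0) and were then differentiated in parallel as embryoid bodies, with libraries on days 4, 6 and 8. Aggregates were held in suspension without LIF until day 4. They were then replated on gelatine, so days 6 and 8 are attached outgrowths. The step from day 4 to day 6 is thus also a change of culture, and time and culture cannot be told apart there. Each line is 1 clone or parental culture, and no other engineered allele is described for any of them. The 33 libraries hold 3 replicates per line and day, except day 6, with replicates 2 and 3 only. The unit was TPM, a transcript abundance scaled for transcript length and library total, and levels of different genes can be compared. The pluripotency markers *Pou5f1*, *Nanog*, *Sox2*, *Zfp42*, *Esrrb* and *Klf4* summed to 3161 to 3717 TPM in the day 0 libraries and to 149 to 970 TPM on day 8. *Nanog* itself, next to the deletion, was at 326 to 368 TPM in E14Tg2a and 412 to 486 TPM in the clones on day 0. Replicates are separate differentiations, and the median SD of a gene between replicates was 0.17 on the log2 scale.

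Upstream sequences are shown for the ligand, both co-receptors and *Cer1*, because their RNA levels moved in opposite directions over the course. Each is the 250 bases before the start, 5′ to 3′ on the gene's strand, from RefSeq (GRCm38), which gave such a window for 5 of the 9 genes. Capitals mark CAGAC, the minimal SMAD-binding letters, on either strand (GTCTG on the other).
Nodal, chr10:61417722-61417971, plus strand: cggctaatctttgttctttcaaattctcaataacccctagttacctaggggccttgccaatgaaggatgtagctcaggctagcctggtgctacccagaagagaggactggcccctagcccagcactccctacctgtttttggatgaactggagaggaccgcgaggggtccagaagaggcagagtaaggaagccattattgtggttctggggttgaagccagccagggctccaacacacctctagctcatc
Tdgf1, chr9:110946159-110946408, minus strand: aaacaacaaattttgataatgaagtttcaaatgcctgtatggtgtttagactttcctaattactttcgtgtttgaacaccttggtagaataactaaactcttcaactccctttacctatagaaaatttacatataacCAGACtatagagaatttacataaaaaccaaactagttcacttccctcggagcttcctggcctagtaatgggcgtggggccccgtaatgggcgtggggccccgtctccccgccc
Cfc1, chr1:34535398-34535647, plus strand: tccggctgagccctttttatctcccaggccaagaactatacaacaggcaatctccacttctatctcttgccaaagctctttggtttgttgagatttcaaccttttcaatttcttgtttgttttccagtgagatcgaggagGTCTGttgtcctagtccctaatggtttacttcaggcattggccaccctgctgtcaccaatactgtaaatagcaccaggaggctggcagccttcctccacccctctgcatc
Cer1, chr4:82885152-82885401, minus strand: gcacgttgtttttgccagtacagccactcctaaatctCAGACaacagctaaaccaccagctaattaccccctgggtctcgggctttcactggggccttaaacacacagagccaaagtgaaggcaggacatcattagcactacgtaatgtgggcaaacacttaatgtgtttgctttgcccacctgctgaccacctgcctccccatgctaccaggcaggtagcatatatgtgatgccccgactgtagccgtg

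On either strand CAGAC occurred once each in *Tdgf1*, *Cfc1* and *Cer1*, and in the fifth window found, that of *Acvr2b*, and not in *Nodal*. These are 4 of 5 windows, and it occurred in 42.2% of the 32851 windows of the same length. Neither the FOXH1 letters AATNCACA, found in 3.18% of all windows, nor the SMAD palindrome GTCTAGAC, found in 0.167%, occurred in the 5 windows on either strand. The TATA box letters TATAAA (12.4% of all windows) and the octamer ATTTGCAT, bound by POU factors (1.60%), did not occur in them either.

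Some of these genes have near copies, which bears on how reads were assigned. *Lefty2* (chr1:180893108-180899103) and *Lefty1* (chr1:180935022-180938400) lie 35.9 kb apart on the plus strand of GRCm38. Their coding sequences were identical at 1017 of 1107 bases (91.9%). The longest run shared by both coding sequences was 140 bases, shorter than a read of 150 bases, so a read that lies wholly within the coding part carries at least 1 difference. *Tdgf1* was less separable. Its coding sequence was identical at 506 of 513 bases to the processed pseudogene *Tdgf1-ps1*, which is also listed, and 5 of 367 coding windows of 150 bases were identical in both. The TPM of *Tdgf1* was 2.29 to 4.11 times that of *Tdgf1-ps1* in the 33 libraries, so the split between them makes the level of *Tdgf1* uncertain.

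In undifferentiated E14Tg2a, the co-receptor *Tdgf1* was by far the most abundant of the 9 genes. It stood at 645, 585 and 618 TPM in replicates 1 to 3, or 73.7% of the summed level of the 9. *Lefty1* followed at 65.3 ± 12.9 TPM (SD, n = 3) and *Lefty2* at 52.3 ± 8.14 TPM (SD, n = 3), with overlapping ranges. *Nodal* was at 36.5 ± 3.29 TPM (SD, n = 3), *Smad2* at 29.4 ± 4.85 TPM (SD, n = 3) and *Foxh1* at 21.3 ± 1.83 TPM (SD, n = 3). *Nodal* and *Smad2* overlapped, and *Foxh1* lay below both. *Acvr2b* was at 14.9 ± 2.31 TPM (SD, n = 3). *Cfc1* was at 0.318, 0.154 and 0.0654 TPM, and *Cer1* was listed at 0.0438, 0 and 0 TPM. The ligand, its co-receptor *Tdgf1* and both Lefty antagonists were thus present before differentiation, whereas *Cer1* and *Cfc1* were near 0.

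**Figure D1:**
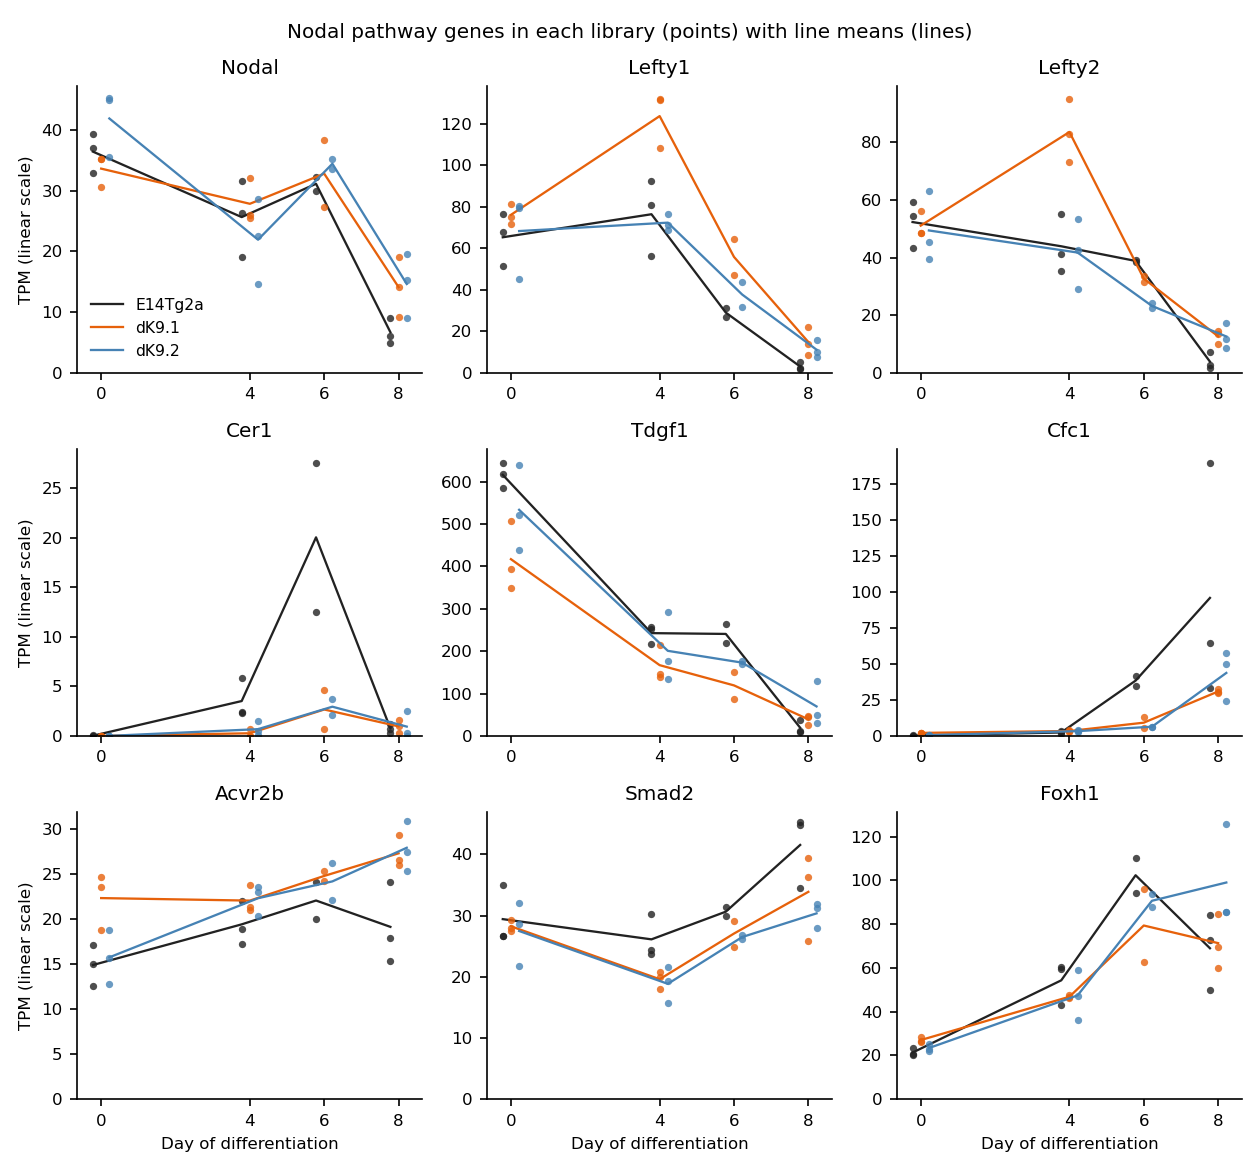
TPM (linear scale) of the 9 genes against day in E14Tg2a (black), dK9.1 (orange) and dK9.2 (blue), with 1 point per library and lines through the means, and points set apart sideways for the 3 lines. *Tdgf1* falls from 585 to 645 TPM on day 0 to 9.06 to 37.2 TPM on day 8 in E14Tg2a, while *Cfc1* reaches 33.4 to 189 TPM.

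Over the course in E14Tg2a the set turned over. A gene was counted as changed at an adjusted p under 0.05 (limma on log2(TPM + 1), Benjamini-Hochberg over all 16336 genes) and an absolute log2 fold change above 1. Fold changes are given on that log2 scale, on which the pseudocount shrinks changes of lowly expressed genes. By day 4, 4 of the 9 genes had changed, against 7.74% of all genes (3.67% higher and 4.07% lower). *Foxh1* rose by 1.30 (SE 0.19, adjusted p = 1.8e-05), *Cfc1* by 1.46 (SE 0.39, adjusted p = 0.0075) and *Cer1* by 2.07 (SE 0.44, adjusted p = 0.00095). *Tdgf1* fell, at -1.34 (SE 0.42, adjusted p = 0.018), a call lost without day 4 replicate 3 (-1.27, adjusted p = 0.062).

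On day 6 the count was 5 of 9 against day 0, beside 17.6% of all genes (8.95% higher and 8.69% lower). *Cer1* was then at its highest, at 12.5 and 27.6 TPM, and *Foxh1* was at 110.4 and 94.4 TPM. *Cfc1* was at 41.8 and 34.8 TPM. Relative to day 0, *Cer1* had risen by 4.28, *Cfc1* by 5.06 and *Foxh1* by 2.21, whereas *Tdgf1* was at -1.36 and *Lefty1* at -1.13 on the log2 scale. From day 4 to day 6 the count was 3 of 9 (9.33% of all genes, 5.19% higher and 4.14% lower), with *Cer1* and *Cfc1* higher and *Lefty1* lower. Some of these calls rested on 1 of the day 6 libraries. Without replicate 2, *Lefty1* did not pass against day 0 (adjusted p = 0.080) or day 4 (adjusted p = 0.074), nor *Tdgf1* against day 0 (adjusted p = 0.14). Without replicate 3, *Tdgf1* did not pass against day 0 (adjusted p = 0.064), nor *Cer1* against day 4 (1.67, adjusted p = 0.061). *Cer1* also missed it against day 4 with a pseudocount of 0.1 TPM (adjusted p = 0.073). *Lefty2* was at 38.6 and 39.0 TPM on day 6, with a log2 difference from day 0 of -0.41 (adjusted p = 0.33).

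Between days 6 and 8 the ligand, both Lefty antagonists, *Cer1* and *Tdgf1* all fell, 5 of 9 genes against 9.26% of all genes, of which 2.73% lower and 6.53% higher. *Nodal* dropped from 30.0 and 32.4 TPM to 9.06, 4.85 and 6.10 TPM, and *Lefty1* from 26.7 and 31.2 TPM to 4.93, 1.79 and 2.15 TPM. No day 8 library overlapped the day 6 libraries for either gene. The log2 fold change was -3.53 for *Cer1*, -3.84 for *Tdgf1*, -3.21 for *Lefty2*, -3.00 for *Lefty1* and -2.10 for *Nodal* (adjusted p between 1.6e-06 and 2.6e-05). By then *Tdgf1* stood at 3.11% of its day 0 mean, *Lefty1* at 4.53%, *Lefty2* at 7.29% and *Nodal* at 18.3%. Replicate 1 was the highest day 8 library for all 4 and raised these shares. *Tdgf1* was at 37.2 TPM there against 9.06 and 11.2 TPM, and *Lefty2* at 7.06 TPM against 2.81 and 1.59 TPM.

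Against day 0, 6 of the 9 genes had changed on day 8, beside 26.9% of all genes (15.9% higher and 11.0% lower). *Nodal*, *Lefty1*, *Lefty2* and *Tdgf1* were lower, and *Cfc1* and *Foxh1* higher. The co-receptors had changed places: *Cfc1* was at 33.4, 64.4 and 189 TPM and *Tdgf1* at 37.2, 9.06 and 11.2 TPM. *Cfc1* exceeded *Tdgf1* in 2 of 3 libraries, and in replicate 1 it was lower. *Acvr2b* and *Smad2* moved little. The log2 difference between days 8 and 0 was 0.33 for *Acvr2b* (SE 0.15, adjusted p = 0.067) and 0.48 for *Smad2* (SE 0.16, adjusted p = 0.0095), the latter under the fold threshold. In bulk RNA a lower level can come from fewer cells that express a gene or from less RNA per cell, which cannot be told apart here.

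In the clones the same 6 genes had changed on day 8 in the same directions. In dK9.1 they were 6 of 9, beside 20.9% of all genes (10.9% higher and 10.0% lower), with *Nodal* at -1.25, *Lefty1* at -2.38, *Lefty2* at -1.95, *Tdgf1* at -3.42, *Cfc1* at 3.39 and *Foxh1* at 1.36 (log2, day 8 minus day 0). In dK9.2 they were 6 of 9, beside 22.2% (11.0% higher and 11.3% lower), with *Nodal* at -1.51, *Lefty1* at -2.53, *Lefty2* at -1.92, *Tdgf1* at -3.18, *Cfc1* at 4.82 and *Foxh1* at 2.02. *Tdgf1* was the only one of the 9 that had changed by day 4 in dK9.1 (5.39% of all genes, 1.37% higher and 4.02% lower), and *Tdgf1* and *Cfc1* had in dK9.2 (7.62%, 2.53% higher and 5.09% lower). By day 6, 4 of 9 had changed in dK9.1 (12.8% of all genes, 4.95% higher and 7.90% lower) and 5 of 9 in dK9.2 (17.5%, 7.00% higher and 10.5% lower), *Cer1*, *Cfc1* and *Foxh1* upward and *Tdgf1* downward in both, and *Lefty2* downward in dK9.2. From day 4 to day 6 the counts were 2 in dK9.1 (5.36%, 3.42% higher and 1.93% lower), *Lefty1* and *Lefty2*, and 1 in dK9.2 (9.90%, 4.89% higher and 5.01% lower), *Cer1*. From day 6 to day 8 they were 5 in dK9.1 (6.51%, 4.82% higher and 1.70% lower) and 4 in dK9.2 (5.21%, 3.68% higher and 1.53% lower), with *Nodal*, *Lefty1* and *Tdgf1* lower and *Cfc1* higher in both, and *Lefty2* lower in dK9.1. Several of these counts were not stable. With 1 library left out, the count in dK9.1 ran from 0 to 1 by day 4 and from 2 to 4 by day 6. In dK9.2 it ran from 1 to 4 and from 3 to 6. The call of *Cer1* in dK9.2 from day 4 to day 6 was lost in many of the fits with 1 library left out (counts of 0 to 2). The count in dK9.1 from day 4 to day 6 was 0 without replicate 2 of day 6 and 5 without replicate 3. With only the groups compared, the counts from day 6 to day 8 were 0 in dK9.1 and 1 in dK9.2.

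On day 0 the clones were compared with E14Tg2a by the rule used for undifferentiated cells, in which each clone on its own must reach an adjusted p under 0.05 and move by more than 0.3 (log2). None of the 8 genes that could be tested with limma met it, and none had an unadjusted p under 0.05 in both clones. Of all 14504 genes tested, 0.0758% met it (11 genes, 0 higher and 11 lower). With the replicate number as a block it was 145 genes, 68 higher and 77 lower, and still none of the 9. The study, with this rule and DESeq2 on counts, reported far more genes in both directions, and a small increase of *Nanog*. No gene met the rule upward in the main fit here, *Nanog* included, so a missing call does not show equal levels. The clone and E14Tg2a libraries of day 0 did not overlap for 7.92% of all genes (5.17% higher and 2.75% lower) and for none of the 9. *Cer1* was listed at 0 in all 6 clone libraries and was below the minimum level. *Cfc1* was at 2.28, 1.66 and 2.21 TPM in dK9.1 and at 0.241, 0.681 and 0.578 TPM in dK9.2. The dK9.1 libraries lay above every E14Tg2a and dK9.2 library. In dK9.1 alone, *Cfc1* was higher than in E14Tg2a by 1.37 (SE 0.20, adjusted p = 0.0041), *Foxh1* by 0.33 (SE 0.10, adjusted p = 0.048), and *Tdgf1* was lower, at -0.58 (SE 0.15, adjusted p = 0.034). The share of all genes called in a single clone on day 0 was not computed. The 0.0758% above belongs to the stricter rule for both clones and is no measure for these calls. *Cfc1* passed under each alternative that tested it (it fell below a minimum of 5 TPM). *Tdgf1* did not pass with no minimum level or without any 1 of E14Tg2a replicates 1, 2 and 3, dK9.1 replicates 2 and 3 and dK9.2 replicate 2 (adjusted p = 0.053 to 0.11). *Foxh1* did not pass after rescaling (0.25, adjusted p = 0.065), with only the groups compared, or without any 1 of 8 of the 9 day 0 libraries, all but E14Tg2a replicate 1 (adjusted p = 0.061 to 0.17). In dK9.2 the same genes were at 0.34, 0.13 and -0.22 (adjusted p = 0.63, 0.71 and 0.68). *Acvr2b* in dK9.1 was 0.55 higher (SE 0.17, adjusted p = 0.053). Blocking on replicate gave an adjusted p of 0.0027.

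**Figure D2:**
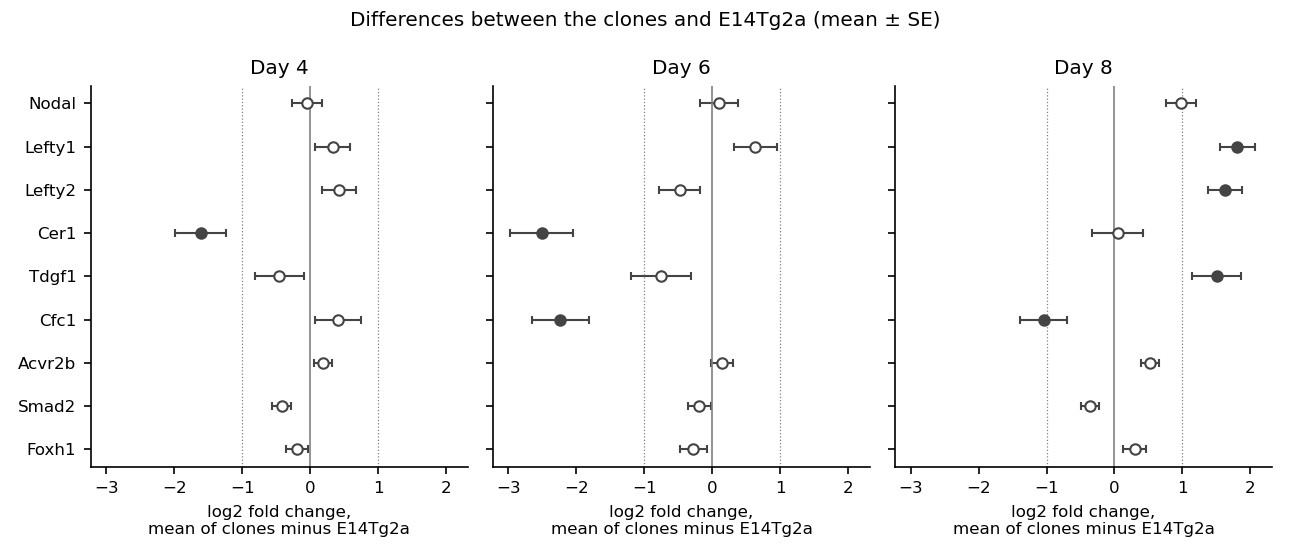
Log2 fold change of the mean of both clones over E14Tg2a (horizontal axis, points with bars of 1 SE) for the 9 genes on days 4, 6 and 8. Filled points passed the test, and dotted lines mark a log2 fold change of 1 in either direction. *Cer1* is at -1.61 and -2.51 on days 4 and 6, and *Lefty1* and *Lefty2* are at 1.81 and 1.63 on day 8.

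On day 4 the clones differed from E14Tg2a in 1 of the 9 genes, *Cer1*, beside 0.796% of all genes (0.0857% higher and 0.710% lower). *Cer1*, an antagonist that binds Nodal and is known from the anterior visceral endoderm, was at 5.83, 2.26 and 2.46 TPM in E14Tg2a. It was at 0.717, 0.0325 and 0.0329 TPM in dK9.1 and at 1.46, 0.454 and 0.119 TPM in dK9.2. All 6 clone libraries were below all 3 E14Tg2a libraries. The mean log2 fold change was -1.61 (SE 0.38, adjusted p = 0.018). Taken alone, dK9.1 passed (-1.80, SE 0.43, adjusted p = 0.022) and dK9.2 did not (-1.42, SE 0.43, adjusted p = 0.18), beside 1.07% and 0.116% of all genes called in these clones. The call in dK9.1 alone was lost with only the groups compared and without any 1 of E14Tg2a replicates 1 and 3 and dK9.1 replicates 2 and 3 of day 4 (highest adjusted p = 0.12). For the mean of both clones it was -1.27 without E14Tg2a replicate 1 (adjusted p = 0.095) and -1.76 without replicate 3 (adjusted p = 0.070), and with only the day 4 libraries in the fit the adjusted p was 0.064.

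*Smad2* was the other gene whose day 4 libraries did not overlap, at 30.2, 23.7 and 24.4 TPM in E14Tg2a and between 15.7 and 21.6 TPM in the clones. It did not pass the test (log2 fold change -0.42, SE 0.13, adjusted p = 0.096). These 2 of 9 stand beside 7.58% of all genes whose clone and E14Tg2a libraries did not overlap on that day (1.63% higher and 5.95% lower). *Lefty1* and *Lefty2* were higher in dK9.1 than in every other library of day 4, at 108 to 132 TPM and 73.1 to 95.0 TPM, whereas dK9.2 lay within or near the range of E14Tg2a. dK9.1 minus E14Tg2a was 0.71 for *Lefty1* (adjusted p = 0.22) and 0.93 for *Lefty2* (adjusted p = 0.078), so neither passed.

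On day 6, 2 of 9 genes differed, beside 1.62% of all genes (0.251% higher and 1.37% lower), and both were lower in the clones. *Cer1* was at 12.5 and 27.6 TPM in E14Tg2a, at 4.66 and 0.661 TPM in dK9.1 and at 3.76 and 2.13 TPM in dK9.2 (log2 fold change -2.51, SE 0.46, adjusted p = 0.0019). *Cfc1*, the co-receptor needed for left-right patterning, was at 41.8 and 34.8 TPM in E14Tg2a, at 13.0 and 5.30 TPM in dK9.1 and at 6.42 and 6.27 TPM in dK9.2 (log2 fold change -2.24, SE 0.42, adjusted p = 0.0022). For both genes every clone library was below both E14Tg2a libraries, and each clone passed on its own (adjusted p = 0.0062 to 0.021, beside 1.62% of all genes in dK9.1 and 0.875% in dK9.2). All 4 of these single-clone calls were lost under some alternatives, among them leaving out dK9.1 replicate 3 in dK9.1 (adjusted p = 0.36 for *Cer1* and 0.53 for *Cfc1*) and either dK9.2 replicate in dK9.2 (highest adjusted p = 0.21 for *Cer1* and 0.10 for *Cfc1*). Either E14Tg2a replicate left out also ended some of them. For the mean of both clones, *Cer1* lost the call with a pseudocount of 0.1 TPM (adjusted p = 0.090), with only the day 6 libraries (adjusted p = 0.082) and without E14Tg2a replicate 3 (-1.98, adjusted p = 0.091). *Cfc1* lost it without E14Tg2a replicate 2 (-2.11, adjusted p = 0.090).

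With 2 against 4 libraries, non-overlap was common on day 6. It held for 6 of the 9 genes and for 32.4% of all genes (12.8% higher and 19.6% lower). *Tdgf1* was at 218 and 263 TPM in E14Tg2a and at 88.0 to 176 TPM in the clones. *Lefty1* was higher in all 4 clone libraries, at 31.6 to 64.7 TPM against 26.7 and 31.2 TPM, and *Lefty2* lower, at 22.3 to 33.7 TPM against 38.6 and 39.0 TPM. None of these 3 passed the test (adjusted p = 0.40, 0.31 and 0.46). *Nodal* was alike in level across the lines, at 30.0 and 32.4 TPM in E14Tg2a and 27.3 to 38.3 TPM in the clones (log2 fold change 0.10, SE 0.27).

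**Figure D3:**
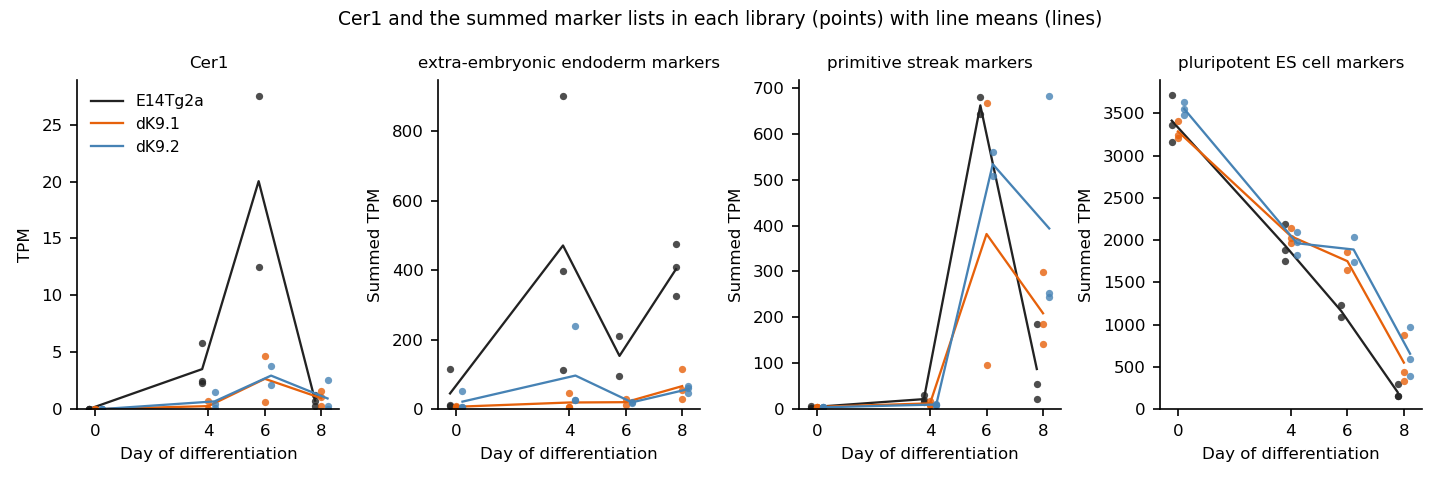
TPM of *Cer1* and the summed TPM of 3 marker lists against day, with 1 point per library and lines through the means of E14Tg2a (black), dK9.1 (orange) and dK9.2 (blue), and points set apart sideways. On day 6 the extra-embryonic endoderm sum is 96.0 and 210.0 TPM in E14Tg2a and 10.5 to 29.3 TPM in the clones.

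Markers of extra-embryonic endoderm were lower in the clones on the days on which *Cer1* was lower, and also on day 8, when *Cer1* did not pass. Of 10 such markers, 8 were lower in the clones on day 4 (*Gata4*, *Dab2*, *Amn*, *Cubn*, *Ttr*, *Afp*, *Apoa1* and *Apob*), 3 on day 6 and 6 on day 8, and none was higher. Of all genes, 0.710%, 1.37% and 3.42% were lower on these days. In dK9.1 alone the counts were 8, 0 and 5 of 10, and in dK9.2 alone 0, 0 and 6. Of all genes, 1.07%, 1.62% and 3.10% were called in either direction in dK9.1, and 0.116%, 0.875% and 5.20% in dK9.2. The sum of the 10 markers on day 4 was 113 to 902 TPM in E14Tg2a, 5.56 to 45.6 TPM in dK9.1 and 25.1 to 238 TPM in dK9.2. In each line the highest sum was that of replicate 1, which also had the highest *Cer1* of its line that day. Replicate 1 had the highest sum of its line on day 0 as well, at 116 TPM in E14Tg2a against 7.46 and 11.6 TPM in replicates 2 and 3. Replicates 2 and 3 of day 4 alone were at 113 and 397 TPM in E14Tg2a and at 5.56 to 26.1 TPM in the clones. On day 6 it was 96.0 and 210.0 TPM in E14Tg2a against 10.5 to 29.3 TPM in the clones. On day 6, 7 of the 10 had a mean below 1 TPM in each clone, *Ttr* and *Afp* among them, and none did in E14Tg2a. Of 7 markers of anterior visceral or definitive endoderm, 1 was lower on day 4 (*Sox17*), 2 on day 6 (*Gsc* and *Cxcr4*) and 2 on day 8 (*Sox17* and *Foxa2*), and none was higher. The calls of days 4 and 6 were also made in dK9.1 alone, and none of them in dK9.2 alone. On day 8, 1 of the 7 was called lower in each clone alone. The pluripotency markers summed to 1643 to 2039 TPM in the 4 clone libraries of day 6, above the 1087 and 1235 TPM of E14Tg2a, although none of the 6 passed in limma for the mean of both clones (3 had an unadjusted p under 0.05, and the median log2 fold change was 0.60). In dK9.1 alone 1 passed, *Esrrb* (1.24, adjusted p = 0.044). On day 0 *Afp* was listed at 0 in all E14Tg2a libraries, and *Afp* and *Ttr* in all dK9.2 libraries. Primitive streak markers were below those of every other day 6 library in dK9.1 replicate 3 (97.1 TPM summed, against 508 to 681 TPM). Within E14Tg2a, *Cer1* did not follow the extra-embryonic endoderm sum over the days. *Cer1* was highest on day 6 and at 0.290 to 1.25 TPM on day 8, when that sum was 324 to 474 TPM. The primitive streak sum of E14Tg2a was 14.4 to 30.1 TPM on day 4, 644 and 681 TPM on day 6 and 21.1 to 186 TPM on day 8. The part of these cell populations in the differences of *Cer1* and *Cfc1* was not tested.

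On day 8 the order was different. *Lefty1*, *Lefty2* and *Tdgf1* were higher in the clones and *Cfc1* lower, 4 of 9 genes beside 4.24% of all genes (0.826% higher and 3.42% lower). Of these, *Lefty1* and *Lefty2* passed in each clone alone, although these single-clone calls were lost with only the groups compared (adjusted p = 0.054 to 0.14) and under no other alternative. *Tdgf1* passed in dK9.2 (1.80, adjusted p = 0.0041) and not in dK9.1 (1.21, adjusted p = 0.060), and *Cfc1* in dK9.1 (-1.25, adjusted p = 0.041) and not in dK9.2 (-0.84, adjusted p = 0.15). In dK9.2 *Nodal* passed too, just over the fold threshold (adjusted p = 0.0089), and in dK9.1 it was at 0.96 (adjusted p = 0.016). With only the groups compared, the single-clone calls of *Tdgf1*, *Cfc1* and *Nodal* were lost too (adjusted p = 0.14, 0.30 and 0.11). Those of *Tdgf1* and *Nodal* in dK9.2 were also lost without E14Tg2a replicate 2 or dK9.2 replicate 1, that of *Nodal* without E14Tg2a replicate 3 or dK9.2 replicate 3, and that of *Cfc1* in dK9.1 with a pseudocount of 0.1 TPM or without E14Tg2a replicate 2 or 3 or any 1 dK9.1 library. All genes called were 3.10% in dK9.1 and 5.20% in dK9.2, and no member passed in the test of one clone against the other. *Lefty1* was at 4.93, 1.79 and 2.15 TPM in E14Tg2a, at 8.52, 13.7 and 22.1 TPM in dK9.1 and at 10.1, 7.32 and 15.8 TPM in dK9.2. *Lefty2* was at 7.06, 2.81 and 1.59 TPM in E14Tg2a, at 9.99, 14.6 and 13.3 TPM in dK9.1 and at 17.4, 8.61 and 11.8 TPM in dK9.2. For both, all 6 clone libraries were above all 3 E14Tg2a libraries. The log2 fold change was 1.81 for *Lefty1* (SE 0.26, adjusted p = 3.2e-05) and 1.63 for *Lefty2* (SE 0.25, adjusted p = 7.5e-05), and both calls, for the mean of the clones, were kept under each of the 39 alternatives (highest adjusted p = 0.025 and 0.032).

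Since reads could be split between these paralogs, their TPM were also summed. On day 8, E14Tg2a had a summed level of 6.77 ± 4.54 TPM (SD, n = 3), against 27.4 ± 8.47 TPM (SD, n = 3) for dK9.1 and 23.6 ± 6.69 TPM (SD, n = 3) for dK9.2. Clones exceeded E14Tg2a by 1.87 on the log2 scale (two-sided exact permutation test, p = 0.0238, which is the smallest that 3 against 6 libraries can give). With labels permuted within replicate numbers the p was 0.0741, again the smallest possible. On days 0, 4 and 6 the log2 difference was 0.05, 0.37 and 0.11 (exact permutation p = 0.857, 0.286 and 0.8, where day 6 cannot go below 0.133).

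*Tdgf1*, which marks undifferentiated cells and the early epiblast, was at 37.2, 9.06 and 11.2 TPM in E14Tg2a on day 8. It was at 45.4, 25.4 and 46.3 TPM in dK9.1 and at 129.9, 29.5 and 49.1 TPM in dK9.2. The ranges overlapped through E14Tg2a replicate 1, but each clone library exceeded its same-numbered E14Tg2a counterpart (6 of 6). The log2 fold change was 1.51 (SE 0.36, adjusted p = 0.0044). It was 1.14 without E14Tg2a replicate 2 (adjusted p = 0.082), and with only the day 8 libraries the adjusted p was 0.11.

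*Cfc1* on day 8 was at 33.4, 64.4 and 189 TPM in E14Tg2a, at 32.4, 30.5 and 29.6 TPM in dK9.1 and at 24.1, 49.6 and 57.4 TPM in dK9.2. The ranges overlapped, and each clone library was below the E14Tg2a library of its number (6 of 6). The log2 fold change of -1.04 (SE 0.34, adjusted p = 0.032) was not held under several alternatives. Without E14Tg2a replicate 3 it was -0.38 (adjusted p = 0.45). The adjusted p was 0.082 without E14Tg2a replicate 2, 0.051 without dK9.1 replicate 3 and 0.087 without dK9.2 replicate 1. It was 0.20 with only the day 8 libraries and 0.073 with a pseudocount of 0.1 TPM.

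*Nodal* itself was at 9.06, 4.85 and 6.10 TPM in E14Tg2a, at 9.17, 14.1 and 19.0 TPM in dK9.1 and at 19.6, 9.02 and 15.2 TPM in dK9.2. Each clone library was above its numbered E14Tg2a library (6 of 6), although dK9.2 replicate 2 was just under E14Tg2a replicate 1. The log2 fold change of 0.98 (SE 0.22, adjusted p = 0.0029) was just under the threshold of 1. It exceeded 1 with a pseudocount of 0.1 TPM (1.08) and without E14Tg2a replicate 1, dK9.1 replicate 1 or dK9.2 replicate 2 (1.11 to 1.19). *Acvr2b* was at 15.4 to 24.1 TPM in E14Tg2a and 25.4 to 31.0 TPM in the clones, which did not overlap (0.53, SE 0.13, adjusted p = 0.0060, under the fold threshold). *Smad2* was at 34.5 to 45.4 TPM against 25.9 to 39.5 TPM (-0.36, SE 0.13, adjusted p = 0.057), and *Foxh1* at 49.9 to 84.2 TPM against 60.1 to 125.8 TPM (0.30, SE 0.16, adjusted p = 0.23). *Cer1* was at 0 to 2.54 TPM in all lines (0.05, SE 0.38). The libraries of *Lefty1*, *Lefty2* and *Acvr2b* did not overlap, 3 of 9, beside 13.4% of all genes (5.44% higher and 7.99% lower).

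**Figure D4:**
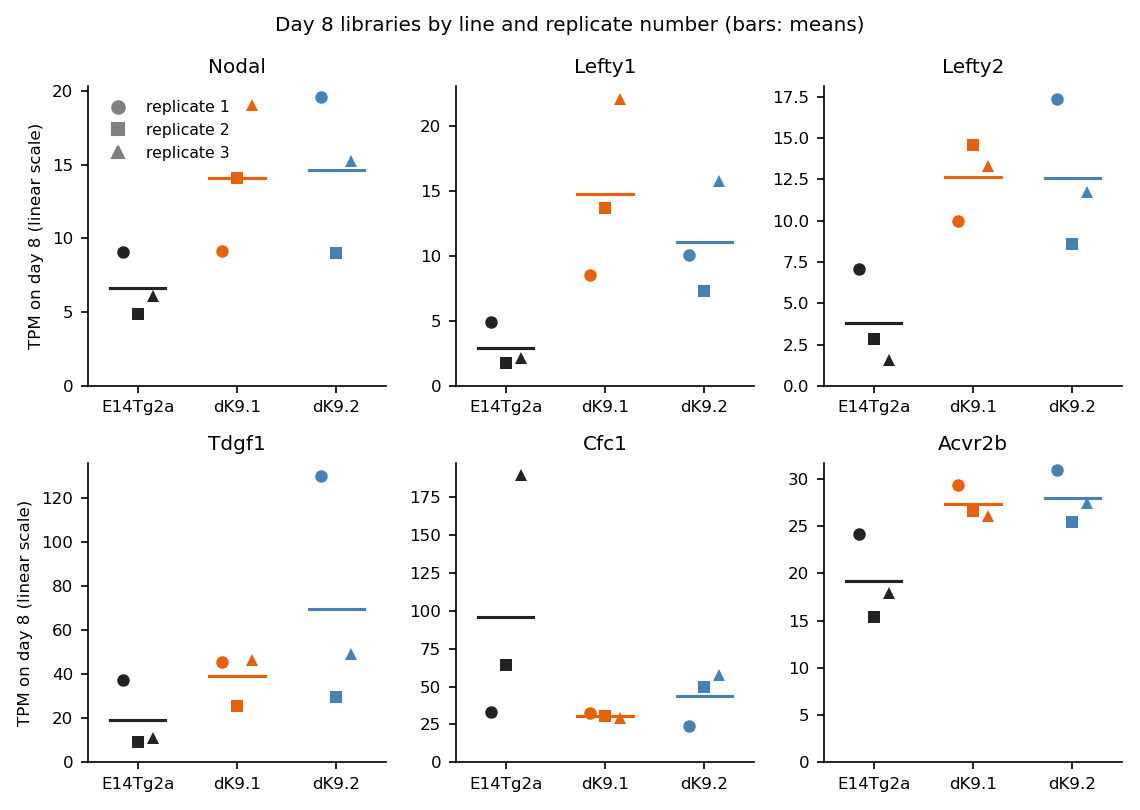
TPM on day 8 (linear scale, from 0) of 6 of the genes in each library of E14Tg2a, dK9.1 and dK9.2, where the marker shape gives the replicate number and bars are means. All 6 clone libraries lie above the 3 E14Tg2a libraries for *Lefty1*, *Lefty2* and *Acvr2b*, and the mean of *Cfc1* in E14Tg2a is raised by 1 library at 189 TPM.

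Markers of other states differed on day 8 as well. Of all genes, 0.826% were called higher and 3.42% lower in the clones that day. Of 6 pluripotency markers, 5 were higher in the clones (*Pou5f1*, *Nanog*, *Sox2*, *Zfp42* and *Esrrb*). The other one, *Klf4*, was at 4.45 to 6.34 TPM in E14Tg2a and 1.78 to 3.10 TPM in the clones (-0.96, adjusted p = 0.0014, under the fold threshold, and called lower in dK9.2 alone). The list summed to 332 to 970 TPM against 149 to 291 TPM in E14Tg2a. The highest sums of each line were 291 TPM in E14Tg2a replicate 1, 881 TPM in dK9.1 replicate 3 and 970 TPM in dK9.2 replicate 1. These libraries also had the highest *Nodal* and *Tdgf1* of their line, E14Tg2a replicate 1 and dK9.1 replicate 3 the highest *Lefty1*, and E14Tg2a replicate 1 and dK9.2 replicate 1 the highest *Lefty2*. Of 6 primitive streak markers, 4 were higher (*T*, *Eomes*, *Mesp1* and *Fgf8*), with sums of 142 to 683 TPM against 21.1 to 186 TPM. In dK9.2 alone all 4 passed, and in dK9.1 alone only *Fgf8* did. Of 10 extra-embryonic endoderm markers, 6 were lower. Their part in the levels of *Lefty1*, *Lefty2*, *Tdgf1* and *Nodal* was not tested.

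The change from day 0 was compared between the lines with an interaction term. By day 4 no gene of the 9 passed in limma (0.0184% of all genes did, 0.0122% higher and 0.00612% lower), and 1 had an unadjusted p under 0.05, *Cer1* (-1.59, SE 0.53, adjusted p = 0.33). By day 6, 1 of 9 passed, beside 0.275% of all genes (0.0551% higher and 0.220% lower). *Cfc1* had risen less in the clones, with a difference of -3.09 (SE 0.54, adjusted p = 0.024). This difference includes the gap on day 0, when mean *Cfc1* was 0.179 TPM in E14Tg2a, 2.05 TPM in dK9.1 and 0.500 TPM in dK9.2, near the floor. Without E14Tg2a day 6 replicate 2 the adjusted p of *Cfc1* was 0.14, and it was also above the threshold without E14Tg2a day 0 replicate 2 or 3, E14Tg2a day 6 replicate 3 or dK9.1 day 6 replicate 3 (0.050 to 0.074). *Cer1* was at -2.49 (SE 0.60, adjusted p = 0.078) and passed without dK9.1 day 6 replicate 2 (adjusted p = 0.0084) or dK9.2 day 8 replicate 3 (adjusted p = 0.039).

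By day 8, 4 of 9 passed, beside 3.05% of all genes (0.508% higher and 2.55% lower). *Lefty1* had fallen less in the clones by 1.67 (SE 0.36, adjusted p = 0.0091), *Lefty2* by 1.69 (SE 0.35, adjusted p = 0.0075) and *Tdgf1* by 1.91 (SE 0.51, adjusted p = 0.026). *Cfc1* had risen less (difference -1.90, SE 0.48, adjusted p = 0.020). The differences of *Tdgf1* and *Cfc1* include gaps on day 0. Mean *Tdgf1* was then 616 TPM in E14Tg2a, 417 TPM in dK9.1 and 534 TPM in dK9.2. *Nodal* was at 0.94 (SE 0.32, adjusted p = 0.073), and passed after rescaling by the median ratio (1.02, adjusted p = 0.046) and without E14Tg2a day 8 replicate 1, dK9.1 day 8 replicate 1 or dK9.2 day 8 replicate 2 (adjusted p = 0.027 to 0.041). *Lefty2* passed under each alternative (highest adjusted p = 0.036), and *Lefty1* under each but the fit without E14Tg2a day 8 replicate 2 (adjusted p = 0.053). *Tdgf1* and *Cfc1* also lost the call in that fit (adjusted p = 0.14 and 0.055), without E14Tg2a day 0 replicate 2 or 3, and without E14Tg2a day 8 replicate 3 (adjusted p = 0.052 to 0.072). With only the groups compared, their adjusted p was 0.082 and 0.064.

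Between dK9.1 and dK9.2, none of the 9 genes passed in limma on any day. The share of all genes that did was 0.520% on day 0 (0.367% higher and 0.153% lower in dK9.2) and 0.00612% on day 6, and it was 0% on days 4 and 8. The number of the 9 with an unadjusted p under 0.05 was 2, 2, 0 and 1 on those days. On day 4, dK9.2 minus dK9.1 was -1.02 for *Lefty2* (SE 0.29, adjusted p = 0.67) and -0.76 for *Lefty1* (SE 0.30, adjusted p = 0.95).

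Of a list of 28 other genes of the pathway, 27 are in the table, all but *Acvr1c*. In E14Tg2a, 9 of the 27 were higher and 4 lower on day 8 than on day 0, beside 15.9% and 11.0% of all genes. *Gdf3*, a TGF-beta ligand that works with *Tdgf1*, fell from 36.8 to 50.2 TPM to 0.684 to 1.66 TPM (log2 fold change -4.48, SE 0.24). *Smad3*, the second receptor-regulated SMAD, rose by 1.74 (SE 0.20). The type I receptor *Acvr1b* was at 0.19 (SE 0.20, adjusted p = 0.43). *Smad7*, an inhibitory SMAD, fell by day 4 (-1.39, SE 0.28, adjusted p = 0.00071) and was at -0.16 on day 8 (SE 0.28). *Skil*, a SMAD corepressor, was at 0.86 on day 4 (SE 0.21, adjusted p = 0.0035), under the fold threshold, and at -0.47 on day 8 (adjusted p = 0.061).

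Between the clones and E14Tg2a, none of the 27 passed in limma on day 4 (5 had an unadjusted p under 0.05), 1 was lower on day 6, and on day 8 2 were higher and 1 lower. The share of all genes was 0.796% on day 4, 1.37% lower on day 6, and 0.826% higher and 3.42% lower on day 8. The median log2 fold change of the list was -0.14, -0.14 and 0.06 on these days, beside -0.06, -0.03 and 0.00 for all genes. *Gsc*, an organiser transcription factor, was at 26.5 and 31.1 TPM in E14Tg2a on day 6 and at 2.47 to 16.7 TPM in the clones (-1.43, SE 0.40, adjusted p = 0.043). *Gdf3* on day 8 was at 0.907, 1.66 and 0.684 TPM in E14Tg2a and at 2.22 to 6.07 TPM in the clones, with no overlap (1.09, SE 0.21, adjusted p = 0.00058). *Eomes*, a T-box factor of the streak, was at 20.2, 1.40 and 4.73 TPM in E14Tg2a and 13.97 to 59.6 TPM in the clones (1.72, SE 0.47, adjusted p = 0.011). *Foxa2*, an endoderm and node factor, was at 7.15 to 11.3 TPM against 0.466 to 5.78 TPM (-1.93, SE 0.44, adjusted p = 0.0032). *Eomes* overlapped and *Foxa2* did not. *Acvr1b*, *Smad3*, *Smad7* and *Skil* did not pass on any of the 3 days, with log2 fold changes between -0.48 and 0.67. In the interaction by day 8, 1 of the 27 passed, *Gdf3* (1.26, SE 0.29, adjusted p = 0.012). Of all genes, 3.05% passed there (0.508% higher and 2.55% lower), a share near that of the list.

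**Figure D5:**
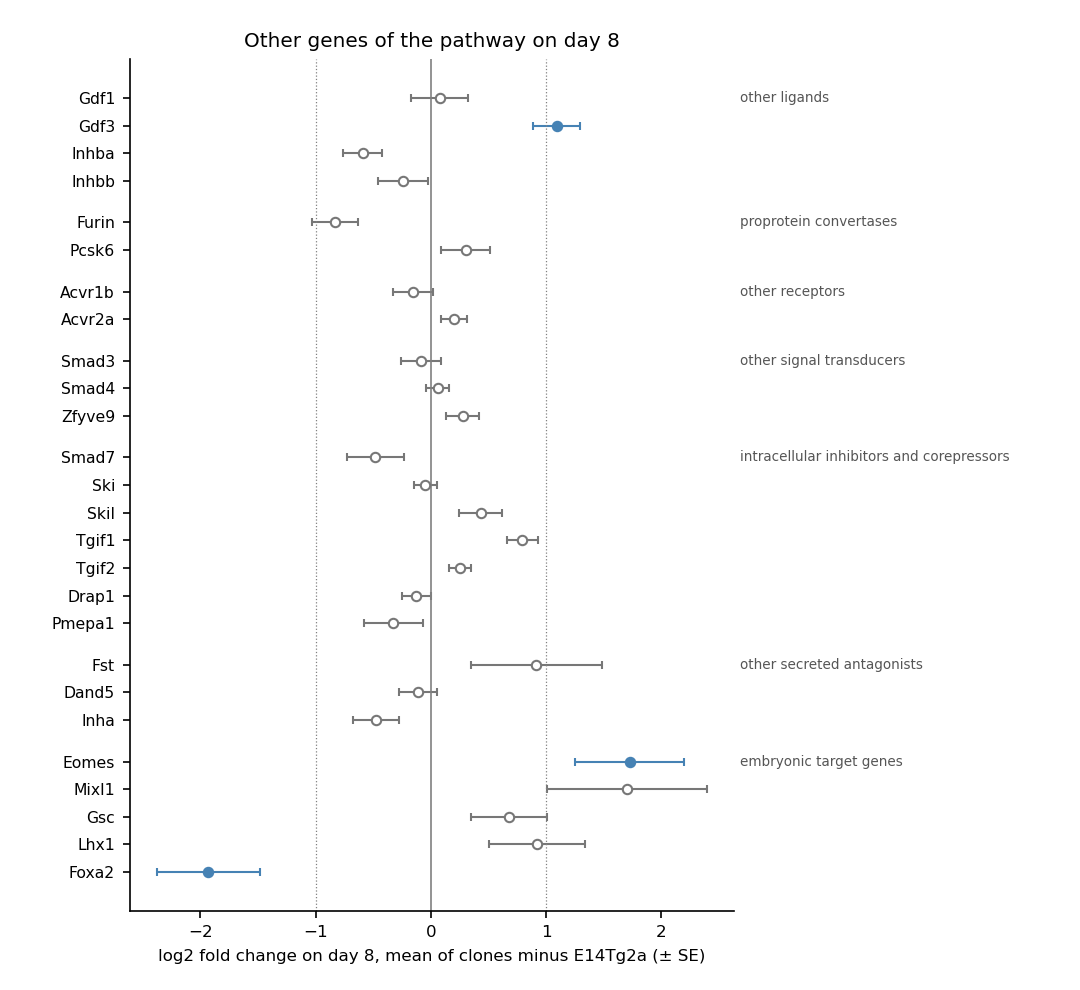
Log2 fold change of the mean of both clones over E14Tg2a on day 8 (horizontal axis, points with bars of 1 SE) for 26 of the 27 other genes of the pathway, ordered by role. Filled points passed the test, and dotted lines mark a log2 fold change of 1 in either direction. *Gdf3* and *Eomes* are higher, at 1.09 and 1.72, and *Foxa2* lower, at -1.93.

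Patterns over the 12 groups of line and day were compared by Pearson's r of the group means of log2(TPM + 1), as a description, since groups share lines, days and replicates. Among the 9, *Lefty1* and *Lefty2* had r = 0.97, *Nodal* and *Tdgf1* 0.92, *Nodal* and *Lefty2* 0.87, and *Tdgf1* and *Cfc1* -0.86. *Cer1* was near 0 with *Nodal* (0.08). The genes most like *Nodal* among 12079 with a group mean of at least 5 TPM were *Yrdc*, *Gemin5* and *Set* (0.97 to 0.98), those most like *Lefty1* were *Fuom*, *Elavl2* and *Anxa11* (0.97 to 0.98), and those most like *Lefty2* were *Lefty1*, *Jakmip1* and *Nat10* (0.94 to 0.97). For *Tdgf1* they were its pseudogene *Tdgf1-ps1* (0.999), *Upp1* and *Bckdhb*, and for *Cfc1* *Igfbp4*, *Pdlim4* and *Tspo* (0.98 to 0.99). For *Cer1* they were *Nefm*, *Pcdh8* and *L1cam* (0.89 to 0.93), for *Acvr2b* *Msi1*, *Swap70* and *Tent5b* (0.93 to 0.95), for *Smad2* *Ppm1d*, *Ckap4* and *Tmem214* (0.97 to 0.98), and for *Foxh1* *Lef1* and *Cks1b* (both 0.99).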

How the data were processed

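The data are RNA-seq of 33 libraries from 3 mouse ES cell lines on 4 days. According to the methods and the labels, libraries were stranded, poly-A selected and read in pairs of 150 bases, aligned to mm10 with STAR and quantified with RSEM, and TPM were computed after outliers in a PCA were omitted, without saying whether these were libraries or genes. Versions and annotation are not given in the sources used here. The authors computed the deposited TPM within each library. The listed values sum to between 994284 and 998266. The table also holds the authors' own log2 fold changes and FDR from DESeq2, as deposited by the authors, which were not used. Counts were not used here and TPM keep no depth, so the number of reads behind each value is unknown, and precision was taken from the replicates.

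All fits were made with limma 3.58.1 (empirical Bayes with a trend) in R 4.3.3 on log2(TPM + 1), in 1 fit of 12 groups, except the day 0 comparison of clones with E14Tg2a, fitted on its 9 libraries. The study used DESeq2 on counts, which TPM do not allow. A gene entered a fit if any of its groups averaged 1 TPM or more. Thresholds were an adjusted p under 0.05 over all genes and an absolute log2 fold change above 1, or above 0.3 in both clones on day 0, after the study's methods. The clones were tested as their mean against E14Tg2a. The sum of *Lefty1* and *Lefty2* was tested by two-sided exact permutation. The fits were tested on simulated data. Sequences were aligned with Biopython 1.88, figures drawn with matplotlib 3.10.9, and gene positions taken from GENCODE M21.

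The members and all lists were chosen with earlier results of these data known, and give no independent support. All 9 members are named. Of the other pathway genes, those called between the clones and E14Tg2a or in an interaction are named, and always *Gdf3*, *Acvr1b*, *Smad3*, *Smad7* and *Skil*. For each member the 3 genes of highest r are named. One other pathway gene, 1 gene of like pattern and 1 pair of coding sequences that these rules would show are not reported here. Marker lists covered pluripotent cells, extra-embryonic endoderm, anterior visceral or definitive endoderm, primitive streak and trophoblast. Of 4 trophoblast markers, 3 are in the table, and none passed between the clones and E14Tg2a on days 4, 6 or 8 in limma (1, 0 and 1 had an unadjusted p under 0.05).

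The study describes 3 assays in which the lines were differentiated in parallel, which pairs the libraries that share a number. After removal of line and day means, the median correlation was 0.22 over 33 pairs of the same number and day (31 above 0.1, lowest -0.013) and -0.13 over 60 pairs of different numbers. The replicate number entered as a block only in an alternative. Other alternatives were a pseudocount of 0.1 TPM, a minimum of 5 TPM or none, rescaling by the median ratio, only the groups compared, no fold threshold, and each library left out in turn.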

Additional observations from a re-analysis of the deposited data

Results flagged for a closer look

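The interaction test itself showed that the clones and E14Tg2a changed unequally from day 0 in the following genes. By day 6 the difference was -3.09 on the log2 scale for *Cfc1*. By day 8 it was 1.67 for *Lefty1*, 1.69 for *Lefty2*, 1.91 for *Tdgf1*, -1.90 for *Cfc1* and 1.26 for *Gdf3*. Groups held 2 or 3 libraries, too few for a test of single outlying libraries.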

How the results depend on the processing

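No result that passed turned its direction. With only the groups compared in the fit, which leaves fewer libraries to estimate the spread, the number of the 9 genes called fell to 0 of 1 on day 4, 1 of 2 on day 6 and 2 of 4 on day 8 between the clones and E14Tg2a, to 2 of 4 in the interaction by day 8, and from day 6 to day 8 to 0 of 5 in dK9.1 and 1 of 4 in dK9.2. With a pseudocount of 0.1 TPM it was 1 between the clones and E14Tg2a on day 6, and 0 from day 4 to day 6 in dK9.2, where rescaling gave 2 and no fold threshold gave 4. With no fold threshold it was also 3 in dK9.1 and 6 in dK9.2 from day 0 to day 4. The cause was not tested.

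With each library left out in turn, the count ranged from 0 to 1 on day 4, 1 to 2 on day 6 and 2 to 5 on day 8 between the clones and E14Tg2a, and in the interactions from 0 to 2 by day 6 and 1 to 5 by day 8. In E14Tg2a it ranged from 3 to 4 from day 0 to day 4 and from 2 to 3 from day 4 to day 6. From day 0 to day 6 it ranged from 3 to 5 in E14Tg2a, 2 to 4 in dK9.1 and 3 to 6 in dK9.2, and from day 0 to day 4 from 0 to 1 in dK9.1 and 1 to 4 in dK9.2. From day 4 to day 6 it ranged from 0 to 5 in dK9.1 and 0 to 2 in dK9.2, and from day 6 to day 8 from 2 to 5 in dK9.1 and 1 to 5 in dK9.2. In dK9.1 the extremes came without day 6 replicate 2 (0 called from day 4 to 6) or replicate 3 (5 called from day 4 to 6 and 2 from day 6 to 8). The summed Lefty difference on day 8 ranged from 1.59 to 2.32, with an exact permutation p = 0.0714 without any 1 E14Tg2a library, the smallest that 2 against 6 can give. With the replicate block it was 1.87 (exact permutation p = 0.0741).

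The replicate block moved the count of called members from 2 to 3 in dK9.1 from day 4 to day 6 and from 5 to 4 in dK9.2 from day 0 to day 6. It moved no other count over the members given above, apart from comparisons of a single clone with E14Tg2a. *Cer1* from day 4 to day 6 in dK9.1 was gained (adjusted p = 0.046), *Tdgf1* in dK9.1 against E14Tg2a on day 8 was gained (adjusted p = 0.011) and *Lefty2* from day 0 to day 6 in dK9.2 fell under the fold threshold (-0.95). Of 11490 values of single genes under the alternatives, 155 lost a call, 51 gained one and 118 uncalled values changed sign. Rescaling by the median ratio changed libraries by -0.25 to 0.18 on the log2 scale. The median of all genes was -0.21 in dK9.1 and -0.16 in dK9.2 from day 0 to day 4, 0.12 in dK9.1 from day 4 to day 6 and -0.13 in the interaction by day 4. Over all genes, the block moved the count from 11 to 145 on day 0, from 3 to 12 in the interaction by day 4 and from 85 to 140 between dK9.1 and dK9.2 on day 0. Between the clones and E14Tg2a, the counts of 130, 265 and 693 genes on days 4, 6 and 8 became 22, 140 and 334 with only the groups compared, and 465, 626 and 3217 with no fold threshold. The unknown depth is a limit for the low values of *Cer1* and *Cfc1*.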

Other observations

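The ratio of *Lefty1* to *Lefty2* TPM on day 6 was 0.692 and 0.799 in E14Tg2a, 1.39 and 2.04 in dK9.1 and 1.42 and 1.82 in dK9.2. It was chosen after its values were seen and was not tested. On day 0 it was 1.18 to 1.30 in E14Tg2a and 1.15 to 1.74 in the clones, and on day 8 the lines overlapped. On day 4 it was 1.59 to 1.95 in E14Tg2a, below that in dK9.1 (1.39 to 1.58) and overlapping in dK9.2 (1.44 to 2.44).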
